A study of Mus musculus with 38 samples.

Results

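The genes described here encode the constitutive proteasome and the proteins that assemble, activate or inhibit it, measured in the bone marrow of mice with leukaemia driven by an MLL fusion oncogene. They were taken as all probe sets of the array annotated to exactly 1 symbol of the families Psma to Psmg, with the 3 inducible immunoproteasome genes Psmb8, Psmb9 and Psmb10 left out. Psmf1 falls within these families. The rule gave 96 of 45101 probe sets, for 44 genes of 18193 with a probe set of their own. After probe sets at or below the array median on nearly all arrays had been set aside, 82 probe sets and 43 genes were left among 13333 genes tested. The gene set aside, Psmb11, is the thymus-specific catalytic subunit, and its only probe set read 49.4 in normal marrow and 48.6 in the leukaemias (mean intensity). One probe set that lists both Psme2 and its copy Psme2b names 2 genes and was therefore not a member, so this activator subunit was not described.

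The proteasome is the protease that degrades proteins tagged with ubiquitin. Its barrel-shaped core particle is built of outer alpha rings, which gate the entry, and inner beta rings, which hold the catalytic sites, and it is capped by a regulatory particle whose base unfolds substrates with ATPases and whose lid removes ubiquitin. Dedicated chaperones build the core and the base, other caps such as the PA28 and PA200 complexes can replace the regulatory particle, and dividing blood cells and plasma cells are known to depend on the complex.

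RNA came from whole marrow of C57BL/6 mice, with 1 Affymetrix array per mouse. In 34 mice, marrow progenitors bearing c-kit had been infected with a retrovirus that carried the oncogene and put into lethally irradiated syngeneic recipients, male or female, and marrow was taken when the leukaemic mice were euthanised. There were 9 mice with MLL-AF1p, 8 with MLL-AF10, 7 with MLL-ENL and 5 each with MLL-GAS7 and with MLL-AF9. The comparison group was marrow of 4 wild-type C57BL/6 mice, male or female, with no transplant and no virus named. Age, time to disease, the promoter of the virus and the share of recipient cells left in the marrow are not given in the sources used here. The labels name separate mice, so the spread below is between animals.

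Values are log2(intensity + 46.1) after every array had been shifted to the same median, and a difference is the unweighted mean of the 5 cohorts minus normal marrow unless another is named. A gene is called when its Benjamini-Hochberg adjusted p in limma, over all 13333 genes, is under 0.05. Before the shift the array medians ran from 129.2 to 208.3 in the leukaemias and from 160.1 to 184.9 in normal marrow. The shift moved the median difference of all genes by 0.13, from 0.04 with the values as deposited to 0.16. The leukaemias also fell into 16 and 18 arrays on 6 probe sets that lay 1.78 apart on the log2 scale between them. No label names these array sets, every cohort has arrays in both, and the normal arrays cannot be placed with certainty. The levels of cell type and mitosis markers differed between leukaemic and normal marrow. Of 10 erythroid markers 9 were lower in the leukaemias, and the mean of the list lay between 6.52 and 7.25 there against 11.81 and 12.63 in normal marrow. All 11 B cell markers were lower (7.20 to 8.79 against 9.92 to 11.08), 6 of 7 monocyte markers were higher (11.04 to 12.65 against 10.13 to 10.93), and 8 of 12 mitosis genes were lower (10.65 to 11.79 against 12.01 to 12.43). The median difference was -1.86 over 10 late neutrophil markers (10.65 to 14.56 against 13.88 to 14.63) and -1.34 over 6 T and NK cell markers (6.89 to 8.50 against 8.53 to 9.27). Over 5 primary granule markers it was 0.82 (12.98 to 15.02 against 13.07 to 14.18). No marker was at 0. In whole marrow, a change in the number of cells of a type and a change of RNA per cell cannot be told apart, and the part of these shifts in the results below was not tested. The 3' to 5' difference of the actin control probe sets ran from 0.15 to 0.65 in the leukaemias and from 0.07 to 0.22 in normal marrow. The 18S ribosomal control read 6.13 to 11.07 (median 8.22) and 5.62 to 7.19 (median 6.75) on the log2 scale, and the part of either in the results was not tested.

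In leukaemic marrow 10 of the 15 core particle genes were higher than in normal marrow, while a nuclear activator and an inhibitor of the proteasome were lower. Of the 43 genes 15 were higher, or 34.9%, where 29.1% of all genes tested were higher. Only 3 were lower, or 6.98%, where the share of all genes was 12.8%. The higher genes were spread unevenly. They made up 5 of 8 alpha ring genes, 5 of 7 beta ring genes, 3 of 8 lid genes, 1 of 4 core chaperones and 1 of 4 activators and inhibitors. None of the 9 base genes and none of the 3 chaperones of the regulatory particle was called higher by limma, with 3 and 0 higher at an unadjusted p under 0.05. The median difference was 0.29 over the members and 0.16 over all genes. It was 0.48 in the alpha ring, 0.41 in the beta ring, 0.18 for the base ATPases and 0.08 for the lid. The difference between the core and the base was not itself tested.

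**Figure D1:**
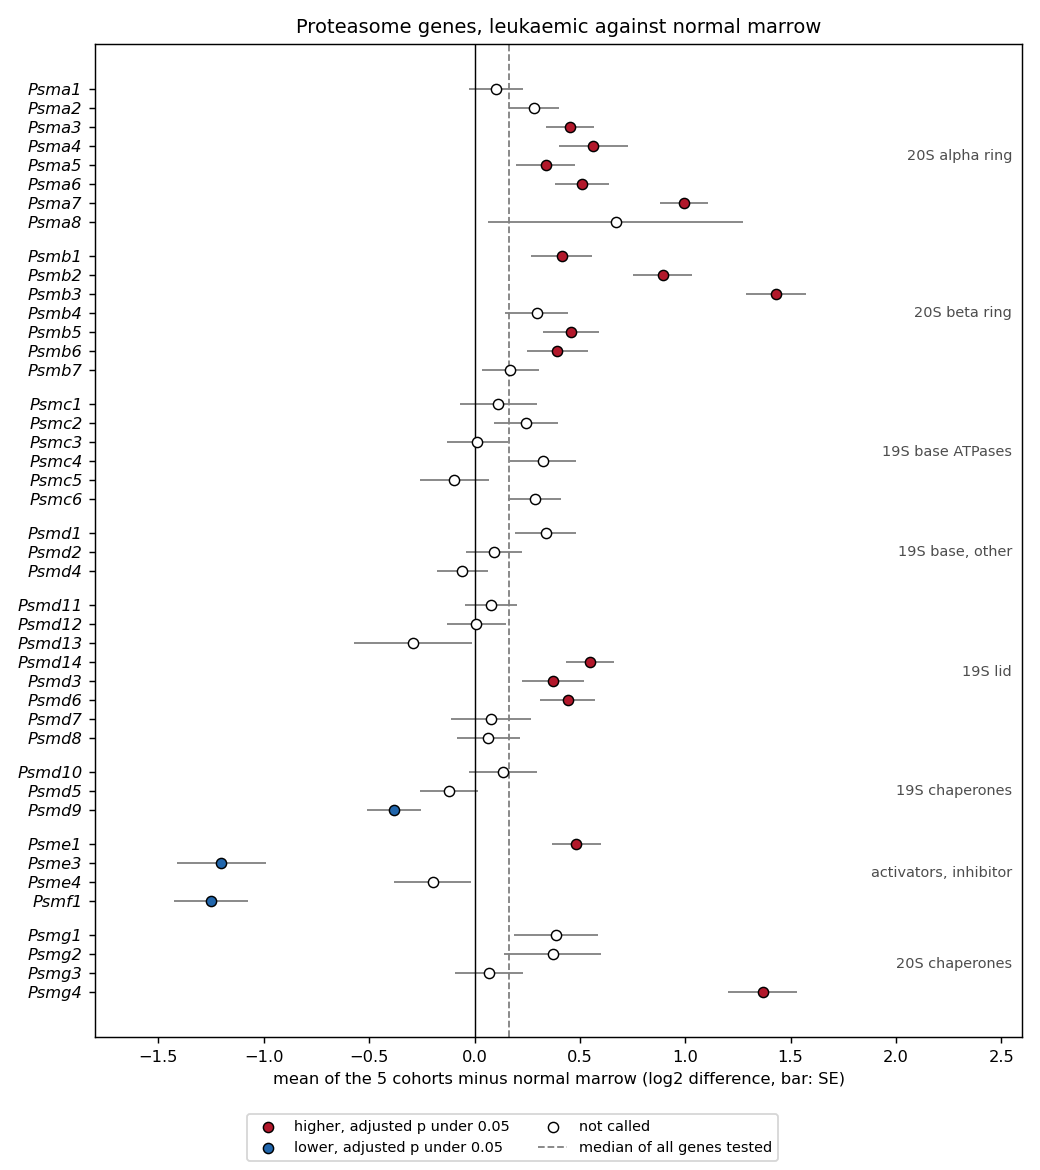
Log2 difference between the mean of the 5 leukaemia cohorts and normal marrow (x axis, bars give the SE from limma) for the 43 genes (y axis), grouped by sub-complex. Filled points are called, open points are not, and the dashed line is the median of all genes tested at 0.16. Psmb3 and Psmg4 lie farthest to the right at 1.43 and 1.37, Psmf1 and Psme3 farthest to the left at -1.25 and -1.20.

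These counts lean on how the arrays were put on 1 scale. After quantile normalization the median of the members, 0.07, lay under that of all genes, 0.09. Of the calls over all genes 69.4% were higher, against 57% as deposited and 60.5% under quantile normalization, and for the members the share was 83.3%, 80% and 68.8%. The median shift moves the difference of every gene by the same amount. Differences relative to the median of all genes are therefore the same, by construction, with it and as deposited, and only quantile normalization could change them. On that relative scale the core genes lay 0.29 higher with either of the first 2 scalings and 0.16 higher after quantile normalization. The base genes lay 0.05 below that median with either of the first 2 and 0.12 below it after quantile normalization, so their own median difference was 0.11, -0.02 and -0.03 in turn. For the lid it was 0.08, -0.05 and -0.09, but 0.28 with the mean of each gene's probe sets and 0.23 without probe sets that may match several transcripts, both above the median of all genes in those fits (0.14 and 0.16). Without the array of normal mouse 4 the core genes called higher numbered 6 in place of 10.

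For 4 members every leukaemia exceeded each normal mouse, and for 2 every leukaemia was under each of them, shares of 9.3% and 4.65% where the shares of all genes were 4.85% and 4.08%. The 4 were the core subunits Psma7, Psmb2 and Psmb3 and the core chaperone Psmg4, and the 2 were Psme3, which forms the nuclear PA28-gamma cap, and Psmf1, the inhibitor PI31. The promoters of Psmb3, Psmg4, Psma7 and Psme3 are shown because these genes include the largest rises and a fall of similar size. Each is the stretch of 250 bases before the first base of the transcript, 5′ to 3′ on the gene's strand, from RefSeq on GRCm38.p6. Capitals mark matches to 3 patterns on either strand, namely TGANNNNGC (the core of the antioxidant response element read by the factor Nrf1, the known activator of proteasome genes), CCAAT (bound by NF-Y) and CCGGAAG (an ETS factor core).
Psmb3 (chr11:97703184-97703433, plus strand): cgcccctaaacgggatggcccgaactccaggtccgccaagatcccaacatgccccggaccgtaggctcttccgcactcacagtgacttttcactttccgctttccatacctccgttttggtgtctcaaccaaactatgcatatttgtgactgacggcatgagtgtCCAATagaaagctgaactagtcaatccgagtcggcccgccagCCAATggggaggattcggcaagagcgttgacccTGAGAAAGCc
Psmg4 (chr13:34162714-34162963, plus strand): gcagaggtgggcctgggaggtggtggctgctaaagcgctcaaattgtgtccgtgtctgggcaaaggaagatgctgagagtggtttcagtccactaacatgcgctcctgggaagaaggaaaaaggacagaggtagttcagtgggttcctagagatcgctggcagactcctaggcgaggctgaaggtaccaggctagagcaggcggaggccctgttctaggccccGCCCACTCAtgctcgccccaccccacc
Psma7 (chr2:180042465-180042714, minus strand): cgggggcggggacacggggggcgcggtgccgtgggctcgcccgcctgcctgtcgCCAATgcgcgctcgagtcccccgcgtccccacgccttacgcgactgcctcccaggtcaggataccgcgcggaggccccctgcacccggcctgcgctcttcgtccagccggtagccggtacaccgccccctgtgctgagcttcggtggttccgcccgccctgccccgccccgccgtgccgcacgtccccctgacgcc
Psme3 (chr11:101315963-101316212, plus strand): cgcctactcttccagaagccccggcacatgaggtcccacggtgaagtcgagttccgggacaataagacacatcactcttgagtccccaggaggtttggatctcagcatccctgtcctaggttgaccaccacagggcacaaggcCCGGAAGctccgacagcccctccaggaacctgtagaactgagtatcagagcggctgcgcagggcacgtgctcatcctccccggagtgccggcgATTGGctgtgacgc
The Psmb3 window holds CCAAT at 85 to 81 and at 43 to 39 bases before the start and TGAGAAAGC at 10 to 2. In Psmg4 the only match is the other strand of the antioxidant core, GCCCACTCA, at 27 to 19, in Psma7 it is CCAAT at 196 to 192, and in Psme3 there are CCGGAAG at 107 to 101 and CCAAT on the other strand at 14 to 10. A promoter was found in the table for 36 of the 44 genes, 38 promoters in all. The antioxidant core was in 39.5% of them and in 35.2% of all 32851 promoters, and CCAAT in 34.2% and 33.8%. The ETS core, a pattern added after the data had been seen, was in 34.2% of the members' promoters, in 6.91% of all promoters and in 12.1% of those of the genes tested. It was in 2 of the 12 higher members that had a promoter. A match shows only that these letters are there.

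Among the alpha subunits, Psma7 (chromosome 2, 180036367 to 180042464 on GRCm38.p6), a ring subunit, rose most. It read 11.34, 11.57, 11.50 and 11.55 in normal mice 1 to 4, and between 12.06 and 12.88, median 12.51, in the 34 leukaemias. The groups are separate, with a gap wider than the range of the normal mice. The difference was 0.99 ± 0.11 (SE, adjusted p = 3.6e-09 by limma), and a second probe set gave 0.98. Psma4 (0.56), Psma6 (0.51), Psma3 (0.45) and Psma5 (0.34), all structural subunits of the ring, were also higher, with adjusted p from 0.0015 to 0.0499. With the mean of its 2 probe sets Psma3 was at 0.10 (0.72), and Psma4 was not called without normal mouse 4 (0.44, 0.065). Psma5 lost its call under 7 of 11 other settings, among them the values as deposited (0.21, adjusted p = 0.14). Psma2 (0.28, adjusted p = 0.053) and Psma1 (0.10, 0.56) were not called. Psma8 replaces Psma7 in the testis. Its values were dim and spread from 5.75 to 9.41 in the leukaemias, against 6.83 to 7.38 in normal marrow, and the difference of 0.67 ± 0.60 was not called.

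Of the beta subunits, Psmb2 and Psmb3 have no catalytic site, and they showed the largest differences. Psmb2 (chromosome 4, 126677637 to 126709715) read 11.34, 11.23, 11.28 and 11.17 in normal mice 1 to 4 and 11.45 to 12.65, median 12.25, in the leukaemias. The lowest leukaemia, MLL-GAS7_407, lay just above the highest normal mouse, so the groups did not overlap. The difference was 0.89 ± 0.14 (adjusted p = 2.5e-06). For Psmb3 (chromosome 11, 97703434 to 97713500) the brighter probe set read 10.40, 11.002, 11.08 and 10.85 in normal mice 1 to 4 and 11.67 to 12.76 in the leukaemias, a rise of 1.43 ± 0.14 or 2.70-fold (adjusted p = 1.9e-10). The other Psmb3 probe set showed none of this. It read 11.08 to 11.58 in normal marrow and 10.91 to 12.25 in the leukaemias, a difference of 0.07 (adjusted p = 0.78 over probe sets), and with the mean of the 2 probe sets the rise was 0.75. Which of them follows the gene's RNA was not tested. Of the catalytic subunits, Psmb5, the chymotrypsin-like site and the target of bortezomib, rose by 0.46 ± 0.13 (adjusted p = 0.0054) and Psmb6, the caspase-like site, by 0.39 ± 0.14 (0.027). Psmb7, the trypsin-like site, differed by 0.17 ± 0.14 (0.33). The structural subunits Psmb1 and Psmb4 were at 0.41 (called, 0.022) and 0.30 (0.11). Psmb1 lost its call without normal mouse 3 (0.39, 0.068) or 4 (0.37, 0.088) and after quantile normalization (0.21, 0.054). Psmb6 lost its call under 3 of 11 other settings (adjusted p up to 0.089), among them the values as deposited (0.26, 0.050). It was also not called when any 1 normal mouse was left out. Averaged over the ring, all 34 leukaemias stood above all 4 normal samples, which ran from -0.06 to 0.06. The leukaemias lay at least 0.10 (MLL-GAS7_407) and at the median 0.58 above the normal mean. This average includes the brighter Psmb3 probe set, whose rise the other probe set did not show. The average without Psmb3, or under other scalings, is not given here, so the full separation may rest on that probe set.

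The chaperones of the core include Psmg4 (chromosome 13, 34162964 to 34178172), which with Psmg3 guides the alpha ring. Psmg4 read 9.63, 9.61, 9.81 and 9.33 in normal mice 1 to 4 and 10.06 to 11.69, median 10.93, in the leukaemias. All leukaemias were higher, and the lowest was MLL-GAS7_407. The rise was 1.37 ± 0.17, or 2.58-fold (adjusted p = 1.7e-08), and Psmg4 and Psmb3 were the only members called with at least a 2-fold rise, a share of 4.65% where 6.39% of all genes tested rose as much. Its partner Psmg3 differed by 0.07 ± 0.16 (0.77), and the other pair, Psmg1 and Psmg2, by 0.39 ± 0.20 (0.12) and 0.37 ± 0.23 (0.20).

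**Figure D2:**
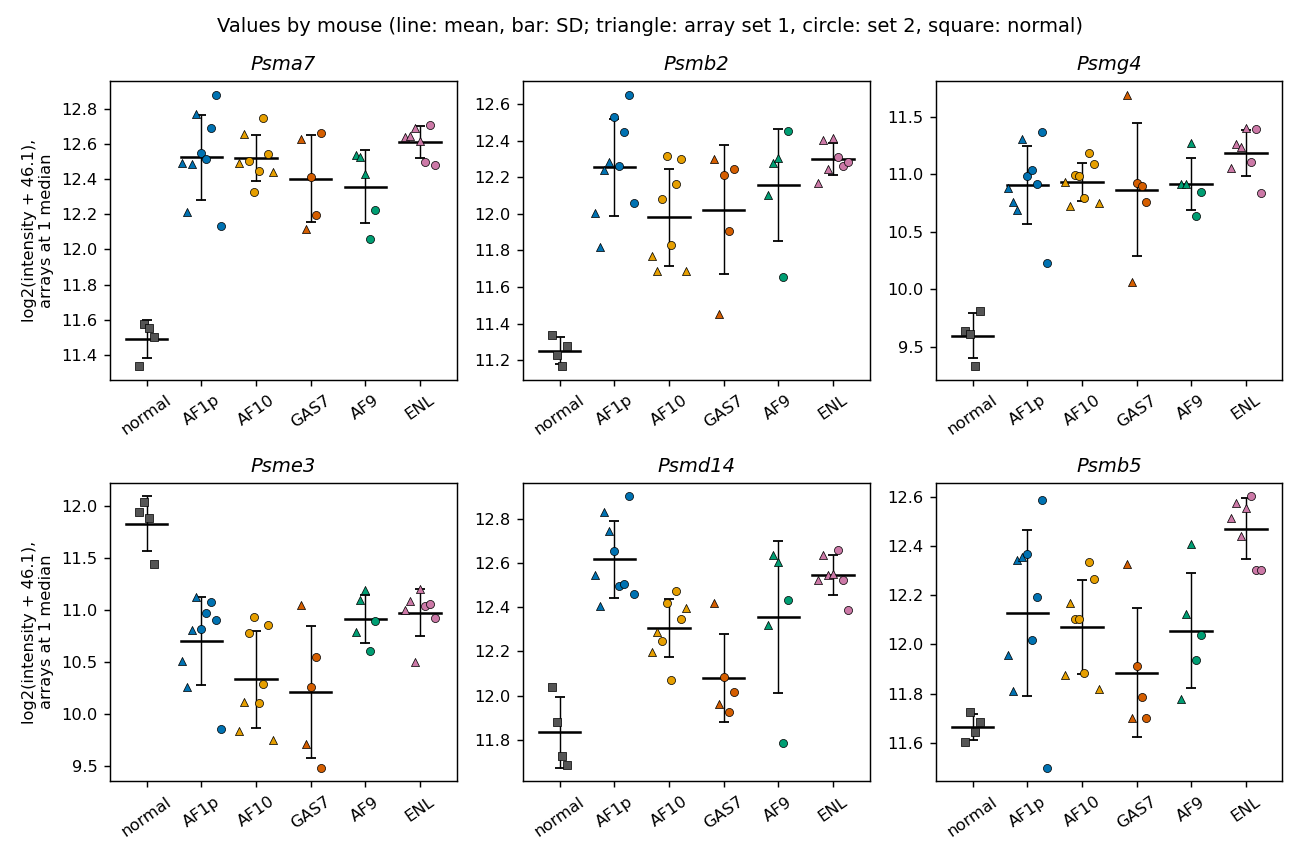
Value of 6 genes in each mouse, as log2(intensity + 46.1) on arrays shifted to 1 median, by group (x axis); bars give mean and SD, squares are normal mice, and triangles and circles are leukaemias of array sets 1 and 2. For Psma7, Psmb2 and Psmg4 every leukaemia lies above the 4 normal mice, and for Psme3 every leukaemia lies below them. Psmd14 and Psmb5 are the genes that differed among cohorts, with MLL-GAS7 lowest of the cohorts in both.

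In the regulatory particle, the 6 base ATPases (Psmc1 to Psmc6), which unfold and thread the substrate, differed by -0.10 to 0.33, and the largest, Psmc4, had an adjusted p of 0.093. The scaffold Psmd1 (0.34, 0.059), its partner Psmd2 (0.09, 0.61) and the ubiquitin receptor Psmd4 (-0.06, 0.74) were not called. In the lid, Psmd14, the deubiquitinase, rose by 0.55 ± 0.11 (adjusted p = 0.00016), from 11.69 to 12.04 in normal marrow to 11.78 to 12.90 in the leukaemias, with 30 of 34 above all normal mice. The structural lid subunits Psmd6 (0.44, 0.0060) and Psmd3 (0.37, 0.038) were higher, while Psmd7 (0.08), Psmd8 (0.06), Psmd11 (0.08) and Psmd12 (0.01) were not called, with adjusted p from 0.66 to 0.97. Psmd3 lost its call under 3 of 11 other settings, among them the values as deposited (0.25, 0.072) and quantile normalization (0.22, 0.087). It also lost its call without normal mouse 1, 3 or 4 (adjusted p up to 0.19).

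Of the 21 members with more than 1 kept probe set, the lid subunit Psmd13, Psmb3 and the base chaperone Psmd9 had the widest spread of differences between probe sets. Others varied as well: the Psma3 probe sets gave 0.45 (called) and -0.26, and 1 of the 5 Psmd11 probe sets gave 0.46 (called) where the brightest gave 0.08. The brightest Psmd13 probe set was not called (-0.29 ± 0.28), and its values followed the array sets, with means of 9.93 in the 16 leukaemias of set 1 and 10.77 in the 18 of set 2. A dim Psmd13 probe set, not split in this way (8.82 and 8.91), rose by 1.83 ± 0.18 (adjusted p = 3.2e-10 over probe sets), from 6.30 to 7.91 in normal marrow to 8.41 to 9.52. For Psmd9 the brightest probe set was at -0.38 ± 0.13, lower (adjusted p = 0.014), a call that ended without normal mouse 1, and a dim one was higher by 0.61 ± 0.24 (0.041 over probe sets). With the mean of a gene's probe sets, Psmd13 was higher by 0.53 (0.0026) and Psmd9 differed by 0.20 (0.28). Both Psmd6 probe sets rose, by 0.44 and 1.05. Among all 82 probe sets of the members 21 were higher and 6 lower, where 24.9% and 12.1% of all kept probe sets were.

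**Figure D3:**
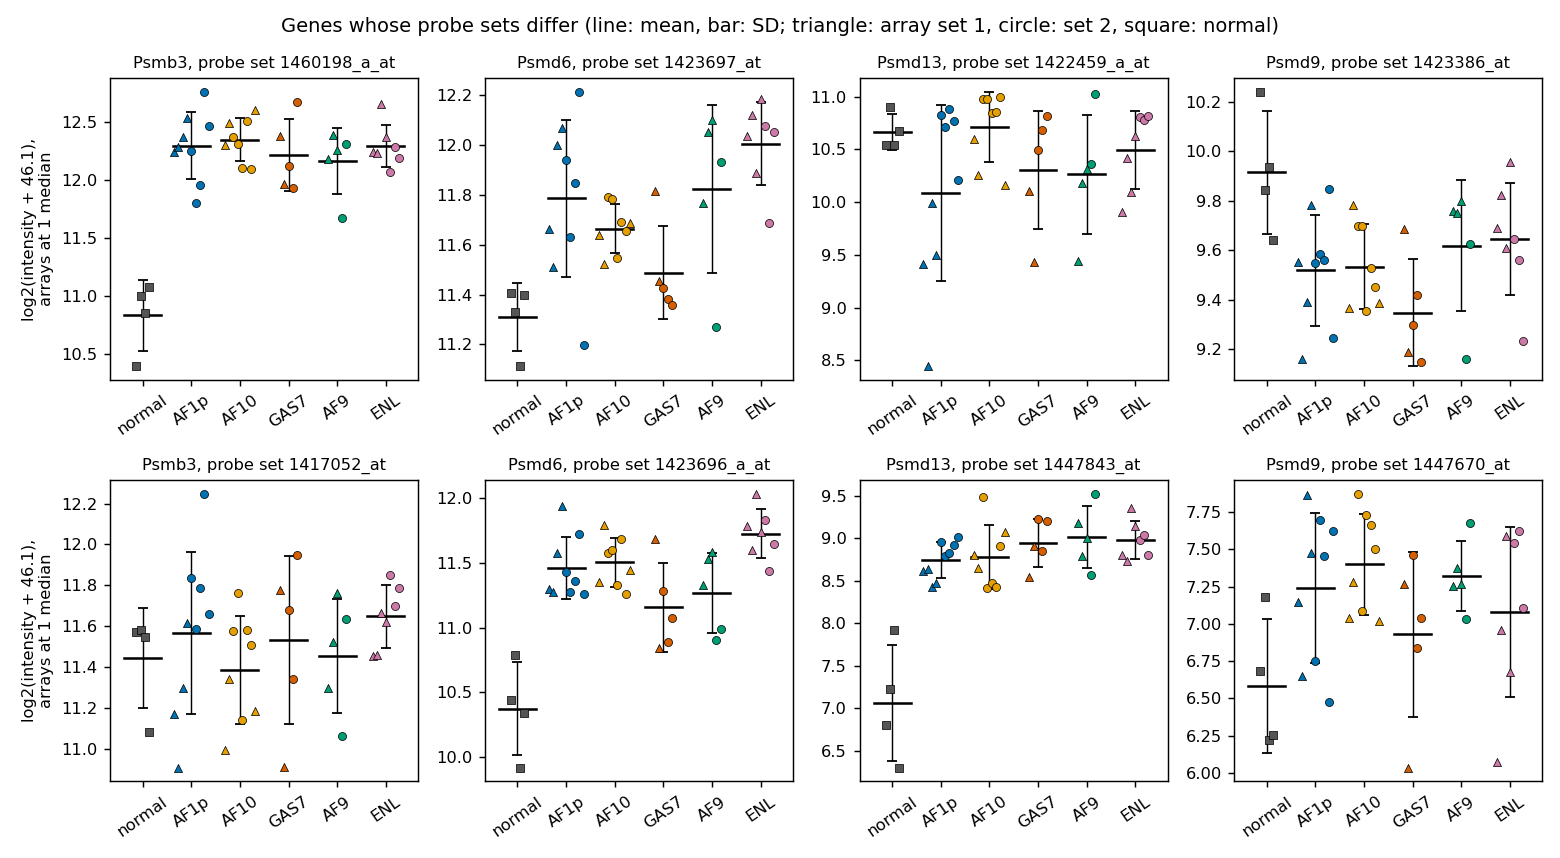
Values by mouse for 4 genes whose probe sets differ, with the brightest probe set on the upper row and another on the lower (log2 scale, bars give mean and SD, squares normal mice, triangles and circles leukaemias of array sets 1 and 2). The rise of Psmb3 appears in 1 of its 2 probe sets, and in the brightest Psmd13 probe set the triangles average 9.93 and the circles 10.77.

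Among the activators and inhibitors, Psme3 and Psmf1 were lower and Psme1 higher. Psme3 (chromosome 11, 101316213 to 101323537) read 11.95, 12.04, 11.45 and 11.89 in normal mice 1 to 4 and 9.48 to 11.21, median 10.81, in the leukaemias. All leukaemias lay below normal mouse 3, the lowest of the normal mice. The gene dropped by 1.20 ± 0.21 (2.30-fold, adjusted p = 1.5e-05), and another probe set gave -1.35. Psmf1 (chromosome 2, 151716062 to 151744199) read 11.23, 10.62, 10.44 and 11.24 in normal mice 1 to 4 and 8.66 to 10.19, median 9.67, in the leukaemias. Again no leukaemia reached the normal range. The gene dropped by 1.25 ± 0.18 (2.38-fold, adjusted p = 3.8e-07), and 2 further probe sets gave -1.43 and -1.06. Its values also differed between the array sets, with means of 9.43 in the leukaemias of set 1 and 9.78 in those of set 2. With the array set as a term in limma, set 1 minus set 2 was -0.36 (adjusted p = 0.014). This fit put normal mouse 2 in set 1, at 0.51 of the way from set 2 to set 1. The other normal mice were put in set 2, and these placements are uncertain. Psmf1 and Psmd13 were the 2 members called for the array set, or 4.65%, where 5.74% of all genes were. Psme1, a subunit of the interferon-inducible PA28 cap, rose by 0.48 ± 0.12 (0.00090), and Psme4, the PA200 cap, was not called (-0.20, 0.41).

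The inducible catalytic subunits, which replace Psmb5, Psmb6 and Psmb7 in the immunoproteasome, were compared with the constitutive ones. Psmb8, which takes the place of Psmb5, rose by 0.86 ± 0.22 (adjusted p = 0.0020) and Psmb10, which takes that of Psmb7, by 0.85 ± 0.17 (0.00011), while Psmb9 differed by 0.24 (0.32). Whether these differences exceed those of the constitutive subunits was not tested. Of 21 further genes of the pathway that were measured, 6 were higher and 3 lower, or 28.6% and 14.3%, where the shares of all genes were 29.1% and 12.8%. The 6 largest of these changes were those of Mafk (-1.07), a small partner of the antioxidant factors, Ecpas (1.01), an adaptor of the proteasome, the ubiquitin shuttles Rad23b (0.76) and Ubqln2 (0.64), the lid subunit Sem1 (0.66) and the core maturation factor Pomp (0.59). Besides Mafk, the lower genes were the antioxidant factor Nfe2l2 (-0.39) and Akirin2 (-0.34), which brings proteasomes into the nucleus. These last 2, and Nfe2l1, which encodes Nrf1 and was not called (0.25, 0.16), were picked for naming after their values were seen. By the F test among cohorts 2 of these 21 differed, Ecpas (adjusted p = 2.1e-06) and the shuttle Ubqln4 (0.037), the latter named after its value was seen. Ecpas was 2.38 above normal in MLL-AF9 and between 0.62 and 0.77 above it in the other 4, and it was called higher in MLL-AF9 against them (1.72 ± 0.18, adjusted p = 8.3e-08).

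Each cohort was then compared with normal marrow. These comparisons share the 4 normal samples, so they are not independent of each other. MLL-AF1p marrow had 13 members called higher, MLL-AF10 had 11, MLL-GAS7 had 5, MLL-AF9 had 12 and MLL-ENL had 25, where the shares of all genes were 24.2%, 24.8%, 16.7%, 23.7% and 30.3%. Those called lower numbered 3, 3, 3, 2 and 2 in the same order, where the shares were 12.3%, 11.8%, 10.4%, 9.86% and 11.1%. Psma7, Psmb2, Psmb3, Psmg4 and Psme1 were called higher and Psme3 and Psmf1 lower in each of the 5. The genes with the largest changes kept much the same level in every cohort. The means of Psmb3 were 12.30, 12.35, 12.21, 12.16 and 12.29, cohorts taken in that order, each with an SD of 0.18 to 0.31, against 10.83 ± 0.31 in normal marrow (n = 4). Psma7 had means of 12.53, 12.52, 12.40, 12.36 and 12.61 in the same order and 11.49 ± 0.11 in normal marrow, and Psmg4 means of 10.91, 10.93, 10.87, 10.92 and 11.18 and 9.59 ± 0.20. For Psmf1 they were 9.50, 9.57, 9.77, 9.61 and 9.70, against 10.88 ± 0.41, and for Psmd9 9.52, 9.53, 9.35, 9.62 and 9.65, against 9.92 ± 0.25. Psme3 varied more, with means of 10.70, 10.33, 10.21, 10.92 and 10.98 against 11.83 ± 0.26, and the F test among cohorts did not call it (adjusted p = 0.053). In MLL-ENL all 7 beta ring genes, 6 of 8 alpha ring genes, 4 of 9 base genes and 4 of 8 lid genes were higher. In MLL-GAS7 the lid and base had none, and the core had 3 of 15. Without normal mouse 4 the count in MLL-AF10 was 6 and in MLL-ENL 18, and after quantile normalization they were 5 and 13.

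**Figure D4:**
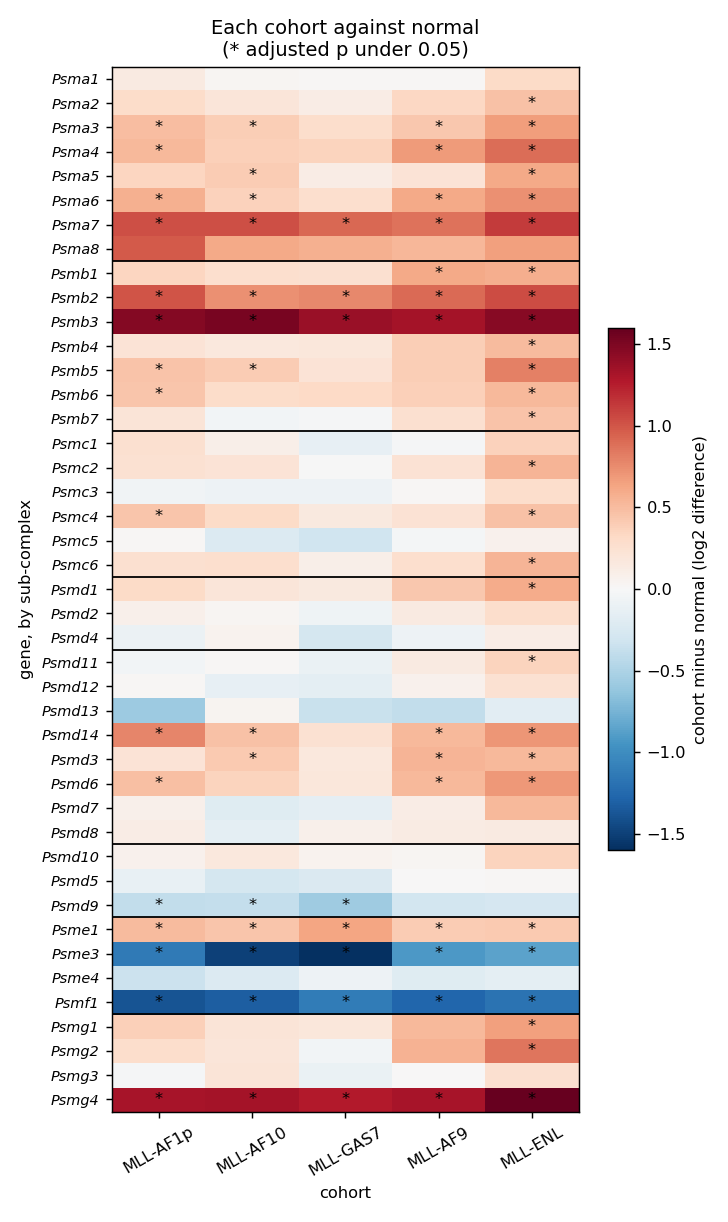
Difference of each cohort (columns) from normal marrow for the 43 genes (rows, lines part the sub-complexes), as colour on the log2 scale, with an asterisk where the gene was called. All 5 columns share the dark rows of Psma7, Psmb2, Psmb3, Psmg4, Psme3 and Psmf1, and the column of MLL-ENL holds 25 genes called higher against 5 in MLL-GAS7.

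The fusions were compared directly as well. By limma's F test among the 5 cohorts 2 of 43 members differed, Psmd14 (adjusted p = 0.014) and Psmb5 (0.049), or 4.65% where 8.09% of all genes tested did. When each of the 38 arrays was left out in turn, Psmd14 kept this call and Psmb5 lost it in 29 fits (adjusted p up to 0.10). Against the mean of the other 4 cohorts, 5 members were higher in MLL-ENL, 1 was higher in MLL-AF1p and 1 was lower in MLL-GAS7. The shares of all genes in these directions were 3.69%, 0.78% and 3.59%, and in the opposite directions, where no member was called, 1.28%, 1.55% and 1.19%. None was called by limma in MLL-AF10 or MLL-AF9, with 4 and 0 at an unadjusted p under 0.05, where 0.195% of all genes were higher and 0.113% lower in the first and 0.293% and 0.075% in the second. The 5 in MLL-ENL were Psmb5 (0.44 ± 0.11, adjusted p = 0.015), the lid subunits Psmd7 (0.55 ± 0.15, 0.030) and Psmd11 (0.35 ± 0.10, 0.034), Psmb7 (0.36 ± 0.11, 0.045) and Psmg2 (0.61 ± 0.18, 0.046). Of these calls, that of Psmb5 was kept in all 38 fits that left out 1 array. Psmd7 lost its call in 3 of them, Psmd11 in 5, Psmb7 in 18 and Psmg2 in 20. The Psmd11 probe set may match several transcripts, and the difference was 0.05 at the lowest of 12 other settings. The median difference of the 43 members from the other cohorts was 0.25 in MLL-ENL, where all genes had 0.09. In MLL-GAS7 it was -0.22, where all genes had -0.08. The members moved largely together from mouse to mouse, so these medians do not rest on 43 separate differences.

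Psmb5 (chromosome 14, 54614120 to 54617995) ran in MLL-ENL from 12.30 to 12.60 with a median of 12.52, in MLL-AF1p from 11.50 to 12.59 (12.19) and in MLL-AF10 from 11.82 to 12.34 (12.10). It read 11.78, 12.13, 12.41, 11.94 and 12.04 in MLL-AF9_307, MLL-AF9_308, MLL-AF9_301, MLL-AF9_305 and MLL-AF9_310, and 12.33, 11.70, 11.91, 11.79 and 11.70 in MLL-GAS7_406, MLL-GAS7_407, MLL-GAS7_405, MLL-GAS7_408 and MLL-GAS7_410. MLL-ENL was high in every mouse, and it overlapped the upper mice of each other cohort. Psmd14 (chromosome 2, 61711694 to 61800376) ran from 12.41 to 12.90 in MLL-AF1p (12.55), from 12.07 to 12.47 in MLL-AF10 (12.32) and from 12.39 to 12.66 in MLL-ENL (12.55). In MLL-AF9 it read 12.32, 12.64, 12.60, 11.78 and 12.43 and in MLL-GAS7 12.42, 11.96, 12.09, 11.92 and 12.01, in the same order of mice. It was higher in MLL-AF1p (0.29 ± 0.08, adjusted p = 0.049) and lower in MLL-GAS7 (-0.37 ± 0.10, 0.028) than in the other cohorts. The first call was lost in 32 of the 38 fits that left out 1 array, and the second without any 1 of MLL-GAS7_405, MLL-GAS7_407, MLL-GAS7_408 and MLL-GAS7_410 (adjusted p up to 0.11), and MLL-GAS7_406 lay among the mice of the other groups.

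These calls among cohorts rest on few mice. Without MLL-GAS7_406 the F test called 13 members, 15 differed in MLL-ENL and 8 in MLL-GAS7. Without MLL-ENL_760 or without MLL-ENL_741 only 1 differed in MLL-ENL, without MLL-ENL_701 or MLL-ENL_703 there were 2, and for 10 other arrays 3. The F test called 1 member in 24 of the 38 fits, 4 without MLL-AF10_802A, 5 without MLL-AF1p_801 or MLL-AF9_305 and 7 without MLL-AF1p_803. Without MLL-AF9_305, 2 differed in MLL-GAS7. Within array set 1, and within array set 2, limma called no member in any comparison among cohorts. The size of the differences was much the same, for Psmb5 in MLL-ENL 0.47 in set 1 (adjusted p = 0.16) and 0.39 in set 2 (0.27), and for Psmd14 in MLL-GAS7 -0.31 (0.51) and -0.38 (0.20). The levels of cell type and mitosis markers differed between cohorts too. The median difference of the late neutrophil markers from the other cohorts was -0.89 in MLL-ENL and 0.58 in MLL-GAS7, of the primary granule markers 0.19 and -0.66, and of the mitosis genes 0.23 and -0.16, and the part of these in the calls was not tested.

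**Figure D5:**
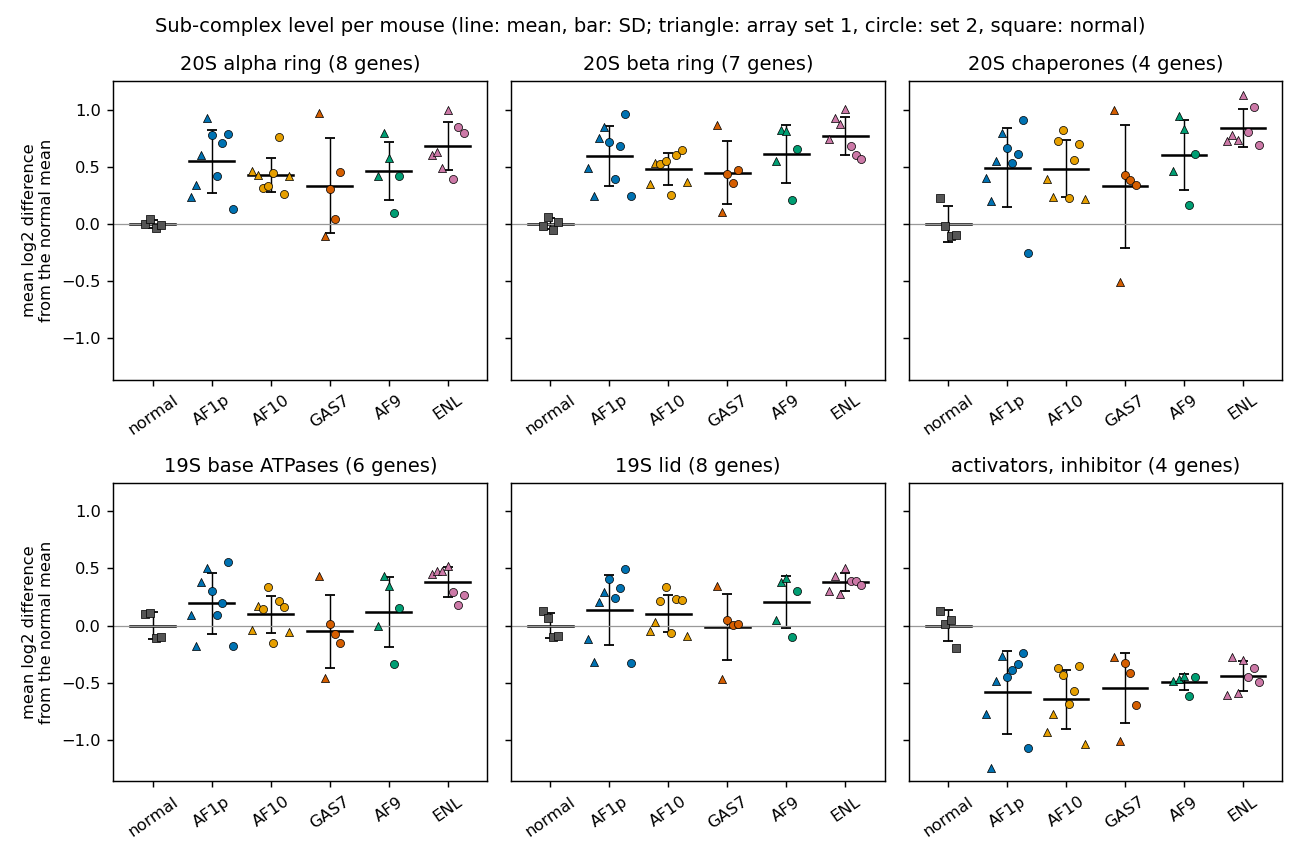
Mean level of the genes of 6 sub-complexes in each mouse, as the log2 difference from the mean of the normal mice, by group (x axis); lines and bars give mean and SD, squares are normal mice, triangles and circles leukaemias of array sets 1 and 2. For the beta ring all leukaemias lie above all normal mice, and for the activators and inhibitor all lie below. The beta ring mean includes the brighter Psmb3 probe set, whose rise the other Psmb3 probe set did not show. For the base ATPases and lid the groups overlap.

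From mouse to mouse the members moved largely together. Averaged over the 43 genes, the 7 MLL-ENL mice stood 0.37 to 0.64 above the normal mean, all above the 4 normal mice, which ran from -0.08 to 0.09. The 5 MLL-GAS7 mice spread from -0.37 (MLL-GAS7_407) to 0.54 (MLL-GAS7_406), and MLL-AF1p_803 (-0.19), MLL-AF1p_801 (-0.14) and MLL-AF9_305 (-0.10) lay below the normal mice as well. In all, 24 of 34 leukaemias lay above the normal mice and 4 below, against 19 and 5 as deposited and 17 and 6 under quantile normalization. The order depends on the scaling as well. Of those 4 mice MLL-GAS7_407, MLL-AF1p_803 and MLL-AF1p_801 had the highest array medians of their cohorts, 206.8, 188 and 208.3, and with the values as deposited the SD over the 34 leukaemias fell from 0.24 to 0.14, MLL-GAS7_407 read -0.17 and MLL-AF1p_801 read 0.08. MLL-ENL kept all 7 mice above the normal samples with the values as deposited (0.14 to 0.35) and 6 after quantile normalization (0.07 to 0.25).

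As a description over the same 34 arrays, which share their scaling, deviations from the cohort means were correlated between the 31 subunits of the core, base and lid, Psma8 left out. The median r over 465 pairs was 0.67, where all genes tested gave 0.08. With the values as deposited these were 0.39 and 0.00022, and after quantile normalization 0.30 and 0.0035. The genes that followed the other subunits least were Psma8 and Psmd13 (median r of 0.19 each), Psmb3 (0.35) and Psmf1 (0.38), which include the probe sets that split by array set or disagreed with another probe set of the gene.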

How the data were processed

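RNA of whole marrow from 38 mice had been measured on 1-colour Affymetrix mouse arrays. The authors deposited 1 linear intensity per probe set and array. The software that made them is not given in the sources available. As deposited, every array had a mean of 500 once the top and bottom 2% were removed. All values were at least 0.1. Genes were named from the platform's annotation for probe sets with 1 symbol, and all 44 members matched RefSeq (GRCm38.p6).

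The 25th percentile of all values, 46.1, was added before taking log2, and arrays were shifted to the same median because their medians spanned 0.54, over a limit of 0.5. Control probe sets were left out, and probe sets had to exceed the array median on 4 or more arrays. The brightest kept probe set stood for its gene. One model of 6 group means was fitted with limma 3.58.1 in R 4.3.3 (32 residual degrees of freedom), 2-sided, with Benjamini-Hochberg adjustment over 13333 genes. Where a fit over probe sets is named, the adjustment was over 29004.

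The number of mice limits the precision. In simulated data with 13333 genes, 50 genes were changed at each size, and the noise was independent between genes. The comparison of leukaemia with normal called 4% of those changed 1.25-fold, 36% at 1.5-fold, 74% at 2-fold and 100% at 4-fold. In the data far more genes were called (29.1% higher and 12.8% lower), which makes the adjusted threshold less strict. The simulated shares therefore do not give the share of changed members that was detected. Fold changes on this scale understate those of dim genes. Members, gene lists and tests were chosen with earlier results of these data known. Any member could be named. Values in every group were given for the 3 largest called changes in each direction, for members called by the F test and for those with probe sets called in opposite directions. Of the pathway's other genes the 6 largest called changes were named. The alternatives were other scalings, pseudocounts, filters, probe set rules, weights and priors, the array set as a term or kept apart, and leaving out each array. Exclusion of the 5 arrays with the brightest hybridisation controls was chosen after the data had been seen. No column of values was left unused.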

Additional observations from a re-analysis of the deposited data

Results flagged for a closer look

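Single mice stood apart from their group, by the gap to the nearest other mouse as a share of the group's range, in 13 of 276 groups of values of single genes and in 2 of 54 groups of sub-complex means, and chance alone sets about 1 group in 20 apart. MLL-GAS7_406 was the highest of its cohort for Psmc6 (11.91, the others 11.22 to 11.38) and Psmd6 (11.82, the others 11.36 to 11.46). MLL-GAS7_407 was the lowest for Psmd8 (11.03, the others 11.73 to 11.96) and Psmg3 (9.06, the others 9.67 to 9.89). MLL-AF9_305 was the lowest for Psmd1 (11.05), Psmd9 (9.16) and the mean of the activators and inhibitors (-0.62 from the normal mean, the others -0.49 to -0.44). MLL-AF1p_803 was the lowest for Psmg3 (8.89, the others 9.49 to 10.07) and for the inducible subunit Psmb10 (9.74, the others 10.87 to 11.38). Of the MLL-ENL mice, MLL-ENL_742 was the highest for Psma5 (12.55), MLL-ENL_741 the highest for Psmd10 (10.04) and MLL-ENL_702 the lowest for Psme3 (10.50). The testis subunit Psma8 stood out in MLL-AF9_308 (8.89, the others 7.00 to 7.25) and in normal mouse 3 (7.38, the others 6.83 to 6.91). The mean of the alpha ring was highest in MLL-AF10_799A (0.76 from the normal mean, the others 0.26 to 0.46).

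The leukaemias differed among cohorts in Psmd14 (adjusted p = 0.014) and Psmb5 (0.049) by limma's F test. No explanation of these values was tested.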

How the results depend on the processing

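Of the 18 members called between leukaemia and normal marrow, 12 kept their call under all 11 settings other than leaving out arrays. Another 5 lost it under at least 1, and Psmd9 turned to 0.20 with the mean of probe sets. Among the members not called, 10 gained a call with the same sign under at least 1 of these settings. Psma2 gained it under 4, and Psmc4 and Psmd1 under 2 each. Quantile normalization gave 5 members lower, 5 higher in MLL-AF10, 13 in MLL-ENL, 3 in MLL-ENL against the other cohorts and 6 by the F test. With the values as deposited 2 were called in MLL-GAS7 against the others and 5 by the F test. Array weights gave 3 base genes higher, 20 members higher in MLL-AF9, and 3 in MLL-GAS7 and 13 in MLL-ENL against the others, with 12 by the F test. The trend and robust prior gave 8 in MLL-ENL against the others and 6 by the F test. A pseudocount of 16 and no filter each gave 0 in MLL-AF1p against the others and 1 by the F test, no filter gave 3 in MLL-ENL, and dropping probe sets that may match several transcripts gave 0 in MLL-AF1p. Within array set 2, with every normal array kept, 4 members were higher in MLL-AF9 and 13 in MLL-ENL. Within set 1 and within set 2, 0 were called in MLL-AF1p, MLL-GAS7 or MLL-ENL against the others or by the F test. With the array set as a term, a fit that rests on the uncertain placement of the normal arrays, 1 base gene was higher. Leaving out the 5 arrays whose hybridisation controls were brightest, 1 base gene was higher, 0 were called in MLL-AF1p, 0 in MLL-GAS7 and 3 in MLL-ENL against the others, and 0 by the F test.

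Leaving out each array gave 10 to 18 members higher, 2 to 3 lower, 6 to 11 core, 0 to 2 base and 2 to 3 lid genes higher. Members higher ran from 9 to 15 in MLL-AF1p, 6 to 12 in MLL-AF10, 5 to 6 in MLL-GAS7, 8 to 16 in MLL-AF9 and 18 to 26 in MLL-ENL. Against the others they ran from 0 to 1, 0 to 0, 0 to 8, 0 to 0 and 1 to 15, and by the F test from 1 to 13. The lowest counts against normal marrow of all members (10) and of the core (6) were without normal mouse 4. So were the lowest counts of MLL-AF1p (9), MLL-AF10 (6), MLL-AF9 (8) and MLL-ENL (18). The highest counts by the F test and in MLL-GAS7 and MLL-ENL against the others were without MLL-GAS7_406.

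Uncalled members changed sign. As deposited the differences included Psma1 -0.0249, Psmc1 -0.0152, Psmc3 -0.115, Psmd11 -0.0519, Psmd12 -0.119, Psmd2 -0.0358, Psmd7 -0.0506, Psmd8 -0.0634 and Psmg3 -0.0594. After quantile normalization they included Psma1 -0.113, Psmb7 -0.0752, Psmc1 -0.0333, Psmc3 -0.183, Psmd11 -0.135, Psmd12 -0.159, Psmd2 -0.104, Psmd7 -0.051, Psmd8 -0.123 and Psmg3 -0.0446. With the array set as a term they included Psmc3 -0.00147 and Psmd12 -0.0068, and within set 2 Psmc1 -0.0958, Psmc3 -0.0389, Psmd12 -0.0503, Psmd13 0.0923, Psmd4 0.00759 and Psmd7 -0.0242. Without the 5 arrays it was Psmd12 -0.00663, and with the mean of probe sets Psmd13 0.527 and Psmd7 -0.24. Leaving out each array, Psmc3 from -0.0312 to 0.0382, Psmd10 from -0.0119 to 0.24 and Psmd12 from -0.0636 to 0.0933 crossed 0. The cause of these changes was not tested. No paired analysis was possible because the replicate labels name single mice and are not shared between groups.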
